A study of Mus musculus with 4 samples.

Results

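The 4 genes of the Kv channel-interacting protein (KChIP) family, Kcnip1, Kcnip2, Kcnip3 and Kcnip4, were followed through single-nucleus RNA sequencing of a mouse hypothalamic region, the paraventricular nucleus (PVN). They were taken by symbol from the 32285 genes counted. The family was chosen by measured values of these data: Kcnip4 was lower at ZT20 (20 hours of zeitgeber time) than at ZT8 in all nuclei pooled and in neuron-like nuclei pooled. Its values in those pools, and in the neuron classes and clusters inside them, are therefore given as a description with no test. Tests were kept for Kcnip1, Kcnip2 and Kcnip3 within neuron classes and clusters, and for all members within glial and vascular classes. Glial nuclei did count in the pool of all nuclei, where the astrocyte-like and oligodendrocyte-like classes held 3822 and 5170 of its 2583102 Kcnip4 unique molecular identifiers (UMIs).

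The study compared 2 libraries made at ZT8 with 2 made at ZT20, where zeitgeber time counts the hours from lights on. The light cycle is not given in the sources used here. All came from male C57BL/6 mice aged 10 weeks per the sample labels (the series text gives a wider range), with no other treatment or genotype named. Each library pooled 5 micropunched PVNs, whose nuclei were isolated on a sucrose gradient and run on the 10x Genomics 3′ v3 assay. The labels name no litter or day for a library and do not say whether other mice were used for each replicate, so the p-values given here rest on the spread among these 4 libraries alone, which may be technical.

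KChIPs are small calcium-binding proteins with EF hands that sit on the inner N-terminus of Kv4 potassium channels. They bring Kv4 channels to the cell surface and set how fast these channels inactivate and recover. The channels carry the somatodendritic A-type current, a transient outward current that delays firing and damps back-propagating action potentials. KChIP3, also called calsenilin or DREAM, is known as well as a calcium-dependent repressor of the dynorphin gene, Pdyn.

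On mm10, all 4 genes lie on the minus strand. Kcnip1 (ENSMUSG00000053519) lies at chr11:33629339-33993152, Kcnip2 (ENSMUSG00000025221) at chr19:45791839-45816061, Kcnip3 (ENSMUSG00000079056) at chr2:127456498-127522094 and Kcnip4 (ENSMUSG00000029088) at chr5:48389502-49524907. Their gene bodies differ far more in length than their exons do. Kcnip4 spans 1135 kb with 3.63 kb of merged exons, Kcnip1 364 kb with 6.20 kb, Kcnip3 65.6 kb with 3.55 kb and Kcnip2 24.2 kb with 3.48 kb. Kcnip4 overlaps 2 other counted genes on the opposite strand, 5730480H06Rik and Gm20700. Kcnip1 overlaps Gm12119, Gm12120 and Kcnmb1 on the opposite strand and 4930469K13Rik on its own, so UMIs of these pairs can be uncertain. Kcnip2 and Kcnip3 overlap no counted gene.

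The members are paralogs, and the stretch of coding sequence where they are most alike is shown because near-identical copies could exchange reads during counting. Each line gives 60 coding bases of the longest complete GENCODE M21 coding sequence on mm10, 5′ to 3′, with capitals where a base differs from Kcnip4.
Kcnip1: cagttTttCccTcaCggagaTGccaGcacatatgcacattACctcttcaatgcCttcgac
Kcnip2: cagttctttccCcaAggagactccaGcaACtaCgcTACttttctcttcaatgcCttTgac
Kcnip3: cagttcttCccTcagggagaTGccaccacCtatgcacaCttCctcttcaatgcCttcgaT
Kcnip4: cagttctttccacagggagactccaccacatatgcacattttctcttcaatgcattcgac
The stretch covers coding bases 271 to 330 of Kcnip1, 400 to 459 of Kcnip2, 442 to 501 of Kcnip3 and 340 to 399 of Kcnip4. All 4 genes share 41 of the 60 bases, and Kcnip1, Kcnip2 and Kcnip3 differ from Kcnip4 at 10, 11 and 9 of them. Over the whole coding sequences of 684 bases (Kcnip1), 813 (Kcnip2), 855 (Kcnip3) and 753 (Kcnip4), pairs of members were identical at 71.1 to 73.0% of aligned bases. No transcript of one member shared a run of 31 bases with another (0 of 3526 to 6274 such runs per gene).

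The libraries held 6453 and 6923 barcodes at ZT8 and 8320 and 9413 at ZT20, with 57970649 to 69223344 UMIs each, and 6053, 6513, 7747 and 8667 nuclei were kept. Of the 28887 kept barcode sequences, 93 occurred in more than 1 library. Neurons of the labelled nucleus were few: a cluster led by Oxt, Sim1 and Avp, called Sim1 PVN-like, had 19 and 25 nuclei in the ZT8 libraries against 202 and 170 in the ZT20 ones. Thalamic-like neurons, named by markers such as Tcf7l2 and Prkch, made up 54.3 and 54.9% of neuron-like nuclei at ZT8 and 28.4 and 27.2% at ZT20, and GABAergic-like neurons 22.0 and 20.5% against 35.2 and 35.5%. Neurons without a class name, most of which were in clusters with Slc17a6, the vesicular transporter of many glutamatergic neurons, are called other neurons. Nuclei of unnamed clusters, mostly with few UMIs, were 29.6 and 31.4% of kept nuclei at ZT8 and 43.7 and 51.8% at ZT20.

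Kcnip4 was a gene of neurons, and above all of thalamic-like ones. Levels are given as CPM, the usual depth-normalised count, here the UMIs of the gene relative to all UMIs of that class in that library, in the order ZT8 replicate 1, ZT8 replicate 2, ZT20 replicate 1 and ZT20 replicate 2. In thalamic-like nuclei Kcnip4 stood at 22489, 22697, 22380 and 21713 CPM, which is 2.24% of all their UMIs. The Sim1 PVN-like cluster followed with 6455, 6917 and 6640 CPM in the 3 libraries that held at least 20 of its nuclei. GABAergic-like nuclei had 5756, 5878, 4193 and 4314 CPM, and other neurons 4359, 4571, 4134 and 4440. The thalamic-like values lay above those of every other class, the Sim1 values lay above both remaining classes, and the GABAergic-like and other neurons overlapped. Kcnip4 UMIs were found in 100% of thalamic-like nuclei (median 17271 UMIs), and still in 99.6% (95% Clopper-Pearson interval 99.4 to 99.8%) after every nucleus was thinned to 2000 UMIs. Thinned shares were 86.8% (85.6 to 88.0%) of GABAergic-like nuclei (median 10188 UMIs) and 88.7% (85.2 to 91.6%) of Sim1 PVN-like nuclei (median 11952 UMIs), against 97.7 and 98.1% unthinned.

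In glia Kcnip4 was lower than in every neuron class. Astrocyte-like nuclei had 622, 713, 460 and 452 CPM, oligodendrocyte-like nuclei 574, 666, 390 and 380, oligodendrocyte precursor-like (OPC-like) nuclei 383, 464, 355 and 275, and microglia-like nuclei 607, 771, 455 and 721. The ranges of these 4 classes overlapped. Erythroid-like nuclei, which should lack the gene, held its UMIs too. Kcnip4 made up 1603 CPM of the UMIs of these 74 nuclei over the 4 libraries, more than in any of the 4 glial classes. In ZT20 replicate 1, the only library with at least 20 of these nuclei, their neuron markers summed to 7506 CPM. The source of these UMIs was not tested. With every nucleus thinned to 1000 UMIs, Kcnip4 UMIs were in 77.8% of the 27 deep enough erythroid-like nuclei. The same thinning gave 40.4% of astrocyte-like, 41.9% of oligodendrocyte-like, 33.8% of OPC-like and 46.0% of microglia-like nuclei. All lay below the erythroid-like share, so these shares are not read as expression, nor as its absence. Unthinned shares were 81.6, 78.6, 82.1 and 79.7% at median depths of 3970, 3035, 5232 and 2634 UMIs, against 77% of erythroid-like nuclei at 929 UMIs. Vascular classes had uneven values, from 522 to 2826 CPM in endothelial-like, 1006 to 3682 in pericyte-like and 752 to 1157 in fibroblast-like nuclei. The 2 libraries with at least 20 smooth muscle-like nuclei, both of ZT8, had 8746 and 4186 CPM of summed UMIs, but 1832 and 2142 as a mean over nuclei, beside neuron marker sums of 14149 and 8997 CPM. Tanycyte-like nuclei, found in both ZT20 libraries, had 3207 and 1225 CPM summed and 1013 and 1027 as a mean over nuclei. The highest pericyte-like value, 3682 CPM, was 1138 as a mean over nuclei, so these sums are not read as levels of those classes.

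Kcnip1, the member whose protein KChIP1 is known from interneurons, was spread over all neuron classes and was also found in OPC-like nuclei. It was highest in the Sim1 PVN-like cluster, at 476, 453 and 460 CPM. GABAergic-like nuclei had 257, 268, 245 and 240 CPM, other neurons 204, 207, 222 and 241, and thalamic-like nuclei 181, 177, 210 and 195. OPC-like nuclei, at 229, 242, 198 and 184 CPM, lay in the range of these neurons. Of the 5 classes only the Sim1 cluster lay apart from all the others, and each neighbouring pair of the remaining 4 overlapped over the libraries. Astrocyte-like nuclei had 44.9, 51.4, 40.4 and 31.4 CPM, and oligodendrocyte-like and microglia-like nuclei 5.35 to 24.6, below the 70.3 CPM of erythroid-like nuclei, where 5 of 74 nuclei held its UMIs. After thinning to 2000 UMIs, 52.5% of Sim1 PVN-like, 31.5% of GABAergic-like, 26.4% of thalamic-like and 32.9% of OPC-like nuclei had a Kcnip1 UMI (90.4, 70.3, 60.5 and 59.0% unthinned). The OPC-like share thinned to 1000 UMIs was 20.9%, against 3.7% of erythroid-like nuclei. Per 1000 UMIs of the 10 neuron markers, OPC-like nuclei held 44.1, 45.4, 35.8 and 34.9 Kcnip1 UMIs in the 4 libraries, against 7.28 to 8.97 in neuron-like nuclei and 18.9 in erythroid-like nuclei of ZT20 replicate 1, the only library with at least 20 of these.

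Kcnip2, best known as the cardiac KChIP, was highest in GABAergic-like nuclei, where its level was 40.4, 43.8, 53.4 and 57.9 CPM. Other neurons had 25.7, 23.3, 28.9 and 30.1 CPM, the Sim1 PVN-like cluster 18.6, 25.7 and 20.4, and thalamic-like nuclei 16.4, 17.3, 18.7 and 17.6. GABAergic-like values lay above those of every other neuron or glial class, while the Sim1 values overlapped those of both its neighbours. In glia Kcnip2 was counted in 3 to 20 UMIs per library, at 4.90 to 15.7 CPM, and the 4 glial classes overlapped. A Kcnip2 UMI was found in 34.9% of GABAergic-like and 24.8% of thalamic-like nuclei, and in 9.07% (8.07 to 10.1%) and 3.53% (3.0 to 4.13%) after thinning to 2000 UMIs. The same thinning left 1.22 to 2.19% of the glial classes with a UMI.

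Kcnip3 had another order, with OPC-like nuclei at the top and neurons far below. OPC-like nuclei had 688, 696, 629 and 677 CPM and astrocyte-like nuclei 190, 176, 241 and 234. Microglia-like nuclei followed with 61.5, 91.9, 92.2 and 104 CPM, and thalamic-like nuclei with 48.1, 48.5, 47.9 and 46.3. GABAergic-like nuclei had 42.8, 33.5, 45.4 and 44.9 CPM, other neurons 28.4, 33.1, 38.1 and 32.9, and oligodendrocyte-like nuclei 10.5, 13.2, 17.5 and 8.83. In the Sim1 PVN-like cluster the ZT20 libraries had 22.1 and 22.7 CPM and ZT8 replicate 2 had 2.66, from 1 UMI. Among these classes the OPC-like and astrocyte-like values lay apart from each other and from all below, as did the microglia-like and thalamic-like ones, and the GABAergic-like and other neurons overlapped. After thinning to 2000 UMIs, 65.3% (61.1 to 69.3%) of OPC-like and 32.7% (30.4 to 35.0%) of astrocyte-like nuclei had a Kcnip3 UMI, against 7.14% of thalamic-like nuclei (85.4, 52.8 and 35.9% unthinned). Per 1000 neuron marker UMIs there were 114 to 132 Kcnip3 UMIs in OPC-like and 56.0 to 85.6 in astrocyte-like nuclei, against 1.51 to 1.62 in neuron-like nuclei and 6.29 in erythroid-like nuclei of ZT20 replicate 1.

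**Figure D1:**
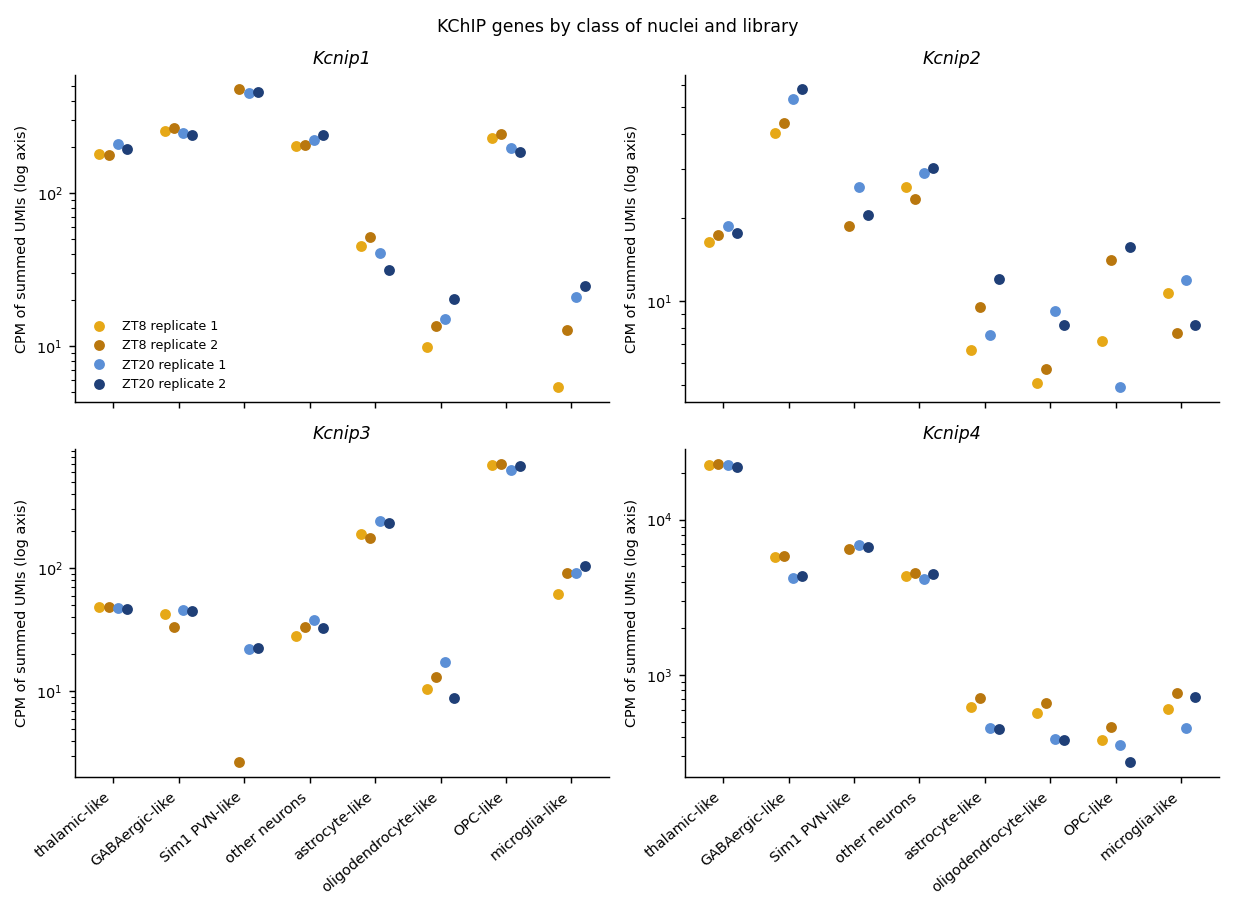
Level of each KChIP gene (CPM of summed UMIs, log axis) in 8 classes of nuclei, 1 point per library, with ZT8 libraries in yellow and brown and ZT20 libraries in blue; classes with fewer than 20 nuclei in a library have no point for it. Kcnip4 stands at 21713 CPM or more in thalamic-like nuclei, Kcnip3 at 629 CPM or more in OPC-like nuclei, and Kcnip2 is highest in GABAergic-like nuclei.

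The members differ in length, and their order depended on which length was taken. Nuclear RNA holds unspliced transcripts, whose long introns can add UMIs, but whether introns were counted is not given in the sources used here. In a 3′ assay the UMIs of spliced transcripts need not scale with exon length. Both scales are therefore given as a description. Per 100 kb of gene body over the 4 libraries, thalamic-like nuclei had 1973 CPM of Kcnip4, 73.1 of Kcnip3, 71.6 of Kcnip2 and 51.6 of Kcnip1. Per kb of merged exons they had 6177 CPM of Kcnip4, 30.3 of Kcnip1, 13.5 of Kcnip3 and 4.99 of Kcnip2. Kcnip4 led on both scales there and in GABAergic-like nuclei, at 423 CPM per 100 kb and 1326 per kb of exon. The order of the other 3 in GABAergic-like nuclei turned with the scale, as Kcnip2 had 210 CPM per 100 kb of gene body against 68.7 of Kcnip1, and 14.6 per kb of exon against 40.3. In OPC-like nuclei Kcnip3 was ahead on both scales, with 1024 CPM per 100 kb and 189 per kb of exon against 32.3 and 101 for Kcnip4, where Kcnip4 was below its level in erythroid-like nuclei.

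Among 30 neuron clusters of at least 100 nuclei, 7 clusters of thalamic-like nuclei had the highest Kcnip4 levels. Clusters 8, 21 and 19 held 30942, 30937 and 30572 CPM over the 4 libraries, clusters 0, 4 and 7 held 27726, 25280 and 21568, and cluster 1 held 16687. The next cluster, 13, was thalamic-like too, at 9722 CPM, and the thalamic-like cluster 2 had 8042. Kcnip4 therefore varied widely inside the thalamic-like class itself. The lowest values were 1320 CPM in cluster 24 and 2107 in cluster 10, both of other neurons with Ebf genes among their leading genes, and 1851 in the GABAergic-like cluster 12.

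Kcnip1 was highest in the 2 thalamic-like clusters that were lowest in Kcnip4. These were clusters 2 and 13, at 570 and 486 CPM, followed by the GABAergic-like cluster 23, at 465, and the Sim1 PVN-like cluster 9, at 449. Clusters 19 and 0, among the highest in Kcnip4, had the lowest Kcnip1 levels, 21.7 and 30.9 CPM. Kcnip2 was highest in the GABAergic-like cluster 12, at 119 CPM, in cluster 24, at 106, and in the GABAergic-like cluster 15, at 91.6. Clusters 12 and 24 were also the lowest in Kcnip4. Kcnip3 was highest in the thalamic-like clusters 4 and 19, at 109 and 105 CPM, and in the GABAergic-like cluster 29, at 108, and lowest in cluster 2, at 9.61. Over these 30 clusters, which share libraries and differ in depth, the log2 level of Kcnip4 had a Pearson correlation of -0.62 with Kcnip2 (Spearman -0.57), -0.48 with Kcnip1 (-0.30) and 0.12 with Kcnip3 (-0.03), given as a description.

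**Figure D2:**
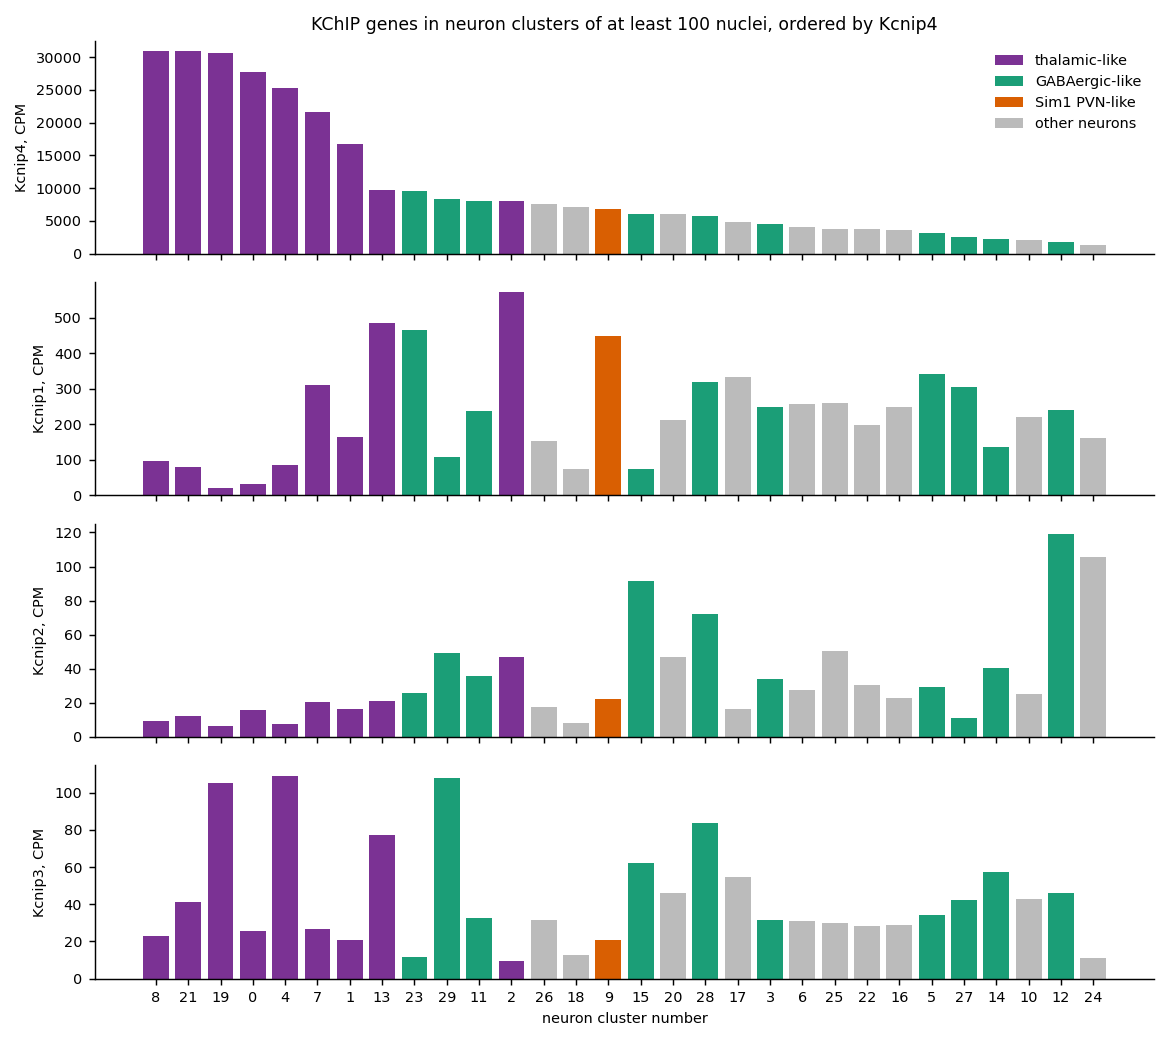
Level of the KChIP genes (CPM over the 4 libraries) in the 30 neuron clusters with at least 100 nuclei, ordered by Kcnip4 and coloured by class. The 7 clusters on the left are thalamic-like and reach 16687 CPM or more of Kcnip4. The 2 highest Kcnip2 bars, of clusters 12 and 24, stand at the right end, where Kcnip4 is lowest. The next highest, of cluster 15, stands at rank 16 of 30 in Kcnip4.

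Between the times, Kcnip4 was lower at ZT20 wherever neurons were pooled, and nearly level within thalamic-like nuclei. In all nuclei it stood at 13749 and 13704 CPM at ZT8 and 9144 and 8854 at ZT20, a log2 change of -0.65 ± 0.02 (SE of the edgeR fit, 2 against 2 libraries, as throughout). In neuron-like nuclei it went from 16746 and 16752 CPM to 11318 and 10923, a log2 change of -0.64 ± 0.02. These are the contrasts that chose the gene, and 47.7% of all genes tested in all nuclei and 43.6% in neuron-like nuclei passed an adjusted p of 0.05 in either direction. In thalamic-like nuclei the log2 change was -0.02 ± 0.02, and in other neurons -0.06 ± 0.04 (-0.11 to -0.0011 when each library was left out). In GABAergic-like nuclei both ZT20 libraries lay below both ZT8 libraries, with a log2 change of -0.46 ± 0.03.

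The pool changed in makeup. Thalamic-like nuclei held 67.0 and 66.0% of the UMIs of neuron-like nuclei at ZT8 and 38.3 and 37.0% at ZT20, and gave 90.0 and 89.4% of the neurons' Kcnip4 UMIs at ZT8 and 75.8 and 73.6% at ZT20. With the ZT8 levels of the 4 neuron classes weighted by the ZT20 makeup, Kcnip4 would stand at 11831 CPM, a log2 change of -0.50 from the 16749 of ZT8. With the ZT20 levels weighted by the ZT8 makeup it would stand at 16114 CPM, a change of -0.06, against -0.59 for both together on this CPM scale. The same number of nuclei was then drawn in every library from each of the 24 of 36 neuron clusters with at least 20 nuclei in every library, 1478 nuclei per library. The other clusters were left out, among them the Sim1 PVN-like cluster 9 and the GABAergic-like clusters 3 and 23. Kcnip4 was then 16073 and 15732 CPM at ZT8 and 14592 and 14408 at ZT20, a log2 change of -0.13 ± 0.02. The ZT20 libraries remained below the ZT8 ones, by a fraction of the difference in the pool. Equal draws within thalamic-like nuclei gave 22994, 22882, 22093 and 21428 CPM (log2 change -0.06 ± 0.02), and within GABAergic-like nuclei 5389, 5115, 4120 and 4434 CPM (-0.29 ± 0.05). GABAergic-like nuclei came in part from different clusters at the 2 times, since cluster 3 had 15 and 16 nuclei in the ZT8 libraries against 267 and 250 in the ZT20 ones, and cluster 23 had 65 and 90 against 6 and 5.

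**Figure D3:**
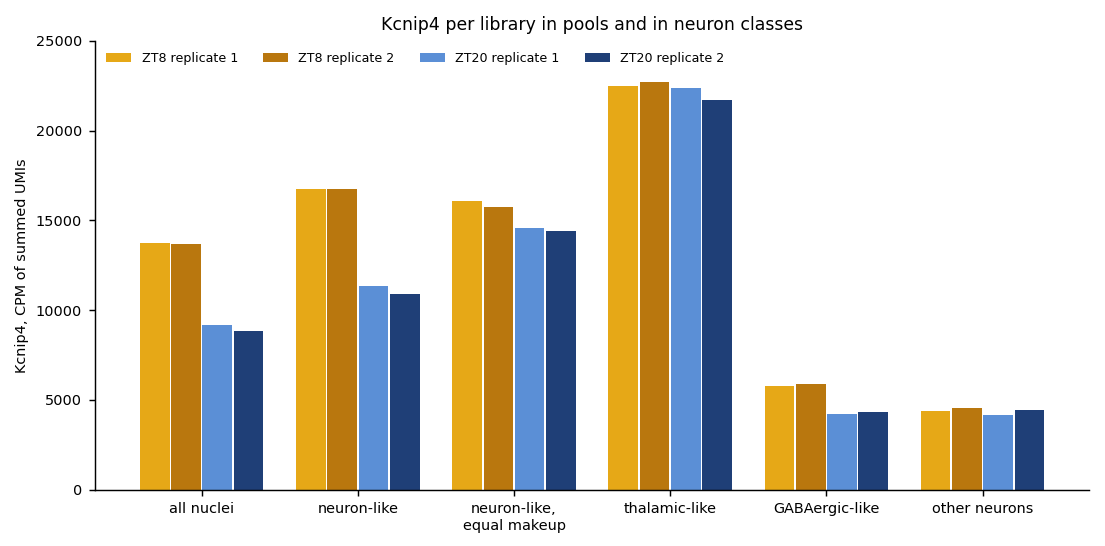
Kcnip4 (CPM of summed UMIs, axis from 0) per library in all nuclei, in neuron-like nuclei, in neuron-like nuclei with an equal makeup of clusters, and in 3 neuron classes. The ZT20 bars stand at 8854 to 11318 CPM in the 2 pools, well below the ZT8 bars, and at 14408 CPM or more with an equal makeup and 21713 or more in thalamic-like nuclei, close to the ZT8 bars there.

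**Figure D4:**
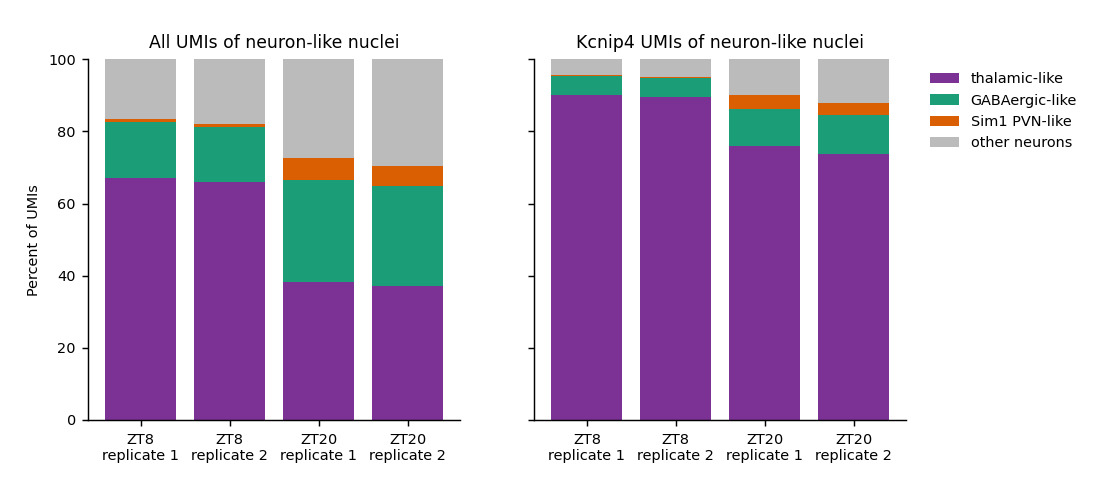
Share (percent) of all UMIs of neuron-like nuclei (left) and of their Kcnip4 UMIs (right) that came from each neuron class, 1 stacked bar per library. Thalamic-like nuclei gave 37.0 to 67.0% of all UMIs and 73.6 to 90.0% of Kcnip4 UMIs, and their part was smaller in both ZT20 libraries.

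Inside the 14 neuron clusters with at least 50 nuclei in every library, the Kcnip4 change was small and mostly downward. It was below 0 in 13 of 14, from -0.40 in the GABAergic-like cluster 5 to 0.15 in the GABAergic-like cluster 14, with a median of -0.15. In cluster 5 Kcnip4 stood at 4256 and 3659 CPM at ZT8 and 3080 and 2970 at ZT20. Some clusters with fewer nuclei lay outside this range and were not fitted. Cluster 24 had 2123 and 1733 CPM at ZT8 and 815 and 595 at ZT20, and cluster 12 had 2564 and 2786 against 1527 and 1656. Cluster 28, GABAergic-like, went the other way, with 4493 and 5309 CPM at ZT8 and 6723 and 6356 at ZT20.

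Kcnip1 was higher at ZT20 in thalamic-like nuclei and in other neurons, and did not pass the test in GABAergic-like nuclei. Among thalamic-like nuclei it rose from 181 and 177 to 210 and 195 CPM (log2 change 0.20 ± 0.03, edgeR adjusted p = 8.7e-07), where 10.8% of genes passed as higher at ZT20 and 9.20% as lower. With equal draws from each thalamic-like cluster the change was 0.088 ± 0.04 and no longer passed (edgeR adjusted p = 0.0877, with 15.2% of genes passing). In other neurons it rose by 0.17 ± 0.05 on the log2 scale (edgeR adjusted p = 0.0158, where 11.8% of genes passed). That call was lost without ZT20 replicate 2 (log2 change 0.11) and with DESeq2. In GABAergic-like nuclei the change was -0.12 ± 0.04 (edgeR adjusted p = 0.0603), and 0.12 ± 0.07 with equal draws (edgeR adjusted p = 0.425, with 6.59% of genes passing). The class by time term for GABAergic-like against thalamic-like nuclei was -0.31 ± 0.06 (edgeR adjusted p = 3.6e-05, 7.97% of genes passing), but 0.04 ± 0.09 with equal draws (edgeR adjusted p = 0.954, 1.53% passing). Against other neurons it was -0.30 ± 0.06 (edgeR adjusted p = 0.0022, 5.17% passing), lost without ZT20 replicate 2 (-0.22, edgeR adjusted p = 0.214). The term for other neurons against thalamic-like nuclei did not pass (-0.01 ± 0.06, edgeR adjusted p = 0.973, 2.83% passing). Kcnip1 in the pool of neuron-like nuclei, a description here, was 197, 199, 238 and 236 CPM, a change of 0.21 ± 0.02, or 0.10 ± 0.03 with equal makeup, where 21.2% of genes passed.

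Within single clusters, Kcnip1 passed in 3 of 14, all upward, where 0.259 to 6.99% of genes passed. In the thalamic-like cluster 4 it rose from 76.2 and 79.7 to 112 and 112 CPM (log2 change 0.50 ± 0.10, edgeR adjusted p = 7.5e-04, 6.97% of genes passing), and it passed there without each library in turn. In cluster 6, of other neurons, it rose from 215 and 215 to 276 and 285 CPM (0.38 ± 0.09, edgeR adjusted p = 0.0102, 1.74% passing), a call lost without any 1 of the 4 libraries (adjusted p 0.0508 to 0.128). In the GABAergic-like cluster 15 it rose from 50 and 37.7 to 100 and 76.1 CPM (1.02 ± 0.23, edgeR adjusted p = 0.0137, 3.17% passing), a call lost without ZT8 replicate 2 (adjusted p = 0.110) and without ZT20 replicate 1 (adjusted p = 0.0965). Over the 14 clusters Kcnip1 changes ran from -0.40 to 1.02 with 9 above 0, so the direction was not common to all of them.

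Kcnip2 was higher at ZT20 in GABAergic-like nuclei, at 40.4 and 43.8 CPM at ZT8 and 53.4 and 57.9 at ZT20. The log2 change was 0.38 ± 0.08 (edgeR adjusted p = 0.0016, where 19.2% of genes passed), 0.25 ± 0.11 with equal draws (edgeR adjusted p = 0.212), and DESeq2 gave an adjusted p of 0.0856. After thinning to 2000 UMIs the share of GABAergic-like nuclei with a Kcnip2 UMI was 7.51 and 6.33% at ZT8 and 9.05 and 11.3% at ZT20. The intervals of these shares count nuclei and not libraries, so they are not used to compare the times. Kcnip2 did not pass in thalamic-like nuclei (0.12 ± 0.09, edgeR adjusted p = 0.350) or in other neurons (0.28 ± 0.10, edgeR adjusted p = 0.0722). Of the 14 clusters it passed in 1, the GABAergic-like cluster 15, where it rose from 64.8 and 52.6 to 115 and 97.7 CPM (0.87 ± 0.20, edgeR adjusted p = 0.0152). That call was lost without ZT8 replicate 2 (adjusted p = 0.141) and without ZT20 replicate 1 (adjusted p = 0.0995). Over the 14 clusters 12 changes of Kcnip2 were above 0 and 2 below. The GABAergic-like cluster 12, highest in Kcnip2 and not fitted, had 151 and 158 CPM at ZT8 and 97.6 and 117 at ZT20. It had 46 and 42 nuclei in the ZT8 libraries against 137 and 150 in the ZT20 ones, and the part of this in the class change was not tested. In the pool of neuron-like nuclei, again a description, Kcnip2 was 21.7, 22.4, 31.7 and 32.7 CPM, and its change went from 0.49 ± 0.05 to 0.24 ± 0.07 with equal makeup.

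Kcnip3 passed in 0 of 3 neuron classes by edgeR's test or DESeq2, and in 0 of 14 neuron clusters by edgeR's test, with 3 clusters at an unadjusted p under 0.05. Its log2 change was -0.02 ± 0.05 in thalamic-like (edgeR adjusted p = 0.847), 0.24 ± 0.09 in GABAergic-like (unadjusted p = 0.0199, edgeR adjusted p = 0.0848) and 0.20 ± 0.10 in other neurons (unadjusted p = 0.0557, edgeR adjusted p = 0.218), where leaving out each library gave 0.094 to 0.33. The GABAergic-like change rested on the ZT8 libraries, which had 42.8 and 33.5 CPM: it was 0.42 without replicate 1 (edgeR adjusted p = 0.0021) and 0.065 without replicate 2 (edgeR adjusted p = 0.776). In the neuron pool the change was -0.11 ± 0.04, and 0.09 ± 0.05 with equal makeup, where fewer nuclei and clusters entered. The reason for the turn in sign was not tested.

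**Figure D5:**
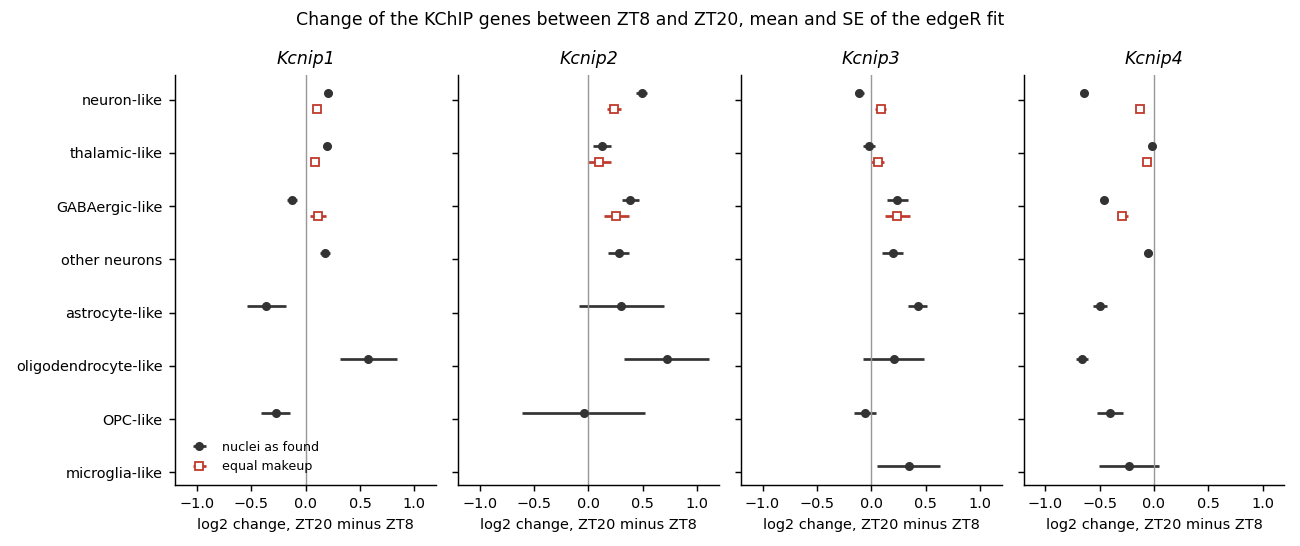
Log2 change from ZT8 to ZT20 of each KChIP gene (point, with the SE of the edgeR fit as bar) in the neuron pool and 7 classes, for the nuclei as found (filled) and, for the neuron pool and 2 neuron classes, with equal numbers of nuclei per cluster (open squares). Kcnip1 and Kcnip2 did not pass the filter on low counts in microglia-like nuclei and have no point there. Kcnip4 moves from -0.64 to -0.13 in the neuron pool when the makeup is made equal.

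In glial and vascular classes, 3 of 17 tests of the members passed: Kcnip3 in astrocyte-like nuclei, and Kcnip4 in astrocyte-like and oligodendrocyte-like nuclei. The Kcnip4 calls are not read as separate from the contrasts that chose the gene, for the reason given with their values below. Kcnip3 rose in astrocyte-like nuclei from 190 and 176 to 241 and 234 CPM (log2 change 0.43 ± 0.09, edgeR adjusted p = 6.9e-04, where 6.32% of genes passed in either direction). The call was lost with DESeq2 (adjusted p = 0.0690), without ZT20 replicate 1 (edgeR adjusted p = 0.0997) and without ZT20 replicate 2 (edgeR adjusted p = 0.0538), while the change stayed between 0.38 and 0.49. Thinned to 2000 UMIs, astrocyte-like nuclei with a Kcnip3 UMI were 28.7 and 29.8% at ZT8 and 35.8 and 36.1% at ZT20. The mix of nuclei differed between the times outside neurons too, as tanycyte-like nuclei were 1 and 1 at ZT8 and 91 and 93 at ZT20. Tcf7l2 in astrocyte-like nuclei was 859 and 814 CPM at ZT8 and 777 and 738 at ZT20. These nuclei formed a single cluster with no equal draws, so the part of their regional makeup in the Kcnip3 change was not tested. OPC-like nuclei, where Kcnip3 was highest, did not pass (-0.06 ± 0.10, edgeR adjusted p = 0.902, with 1.41% of genes passing). The difference between the 2 changes, -0.49 ± 0.13, did not pass (edgeR adjusted p = 0.0641, with 0.356% of genes passing).

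Kcnip4 fell by 0.50 ± 0.07 on the log2 scale in astrocyte-like nuclei (edgeR adjusted p = 3.9e-07) and by 0.66 ± 0.05 in oligodendrocyte-like nuclei (edgeR adjusted p = 7.6e-32, where 10.6% of genes passed). In OPC-like nuclei the change was -0.41 ± 0.12 (edgeR adjusted p = 0.0552), in microglia-like nuclei -0.23 ± 0.28 (edgeR adjusted p = 0.892, 0.778% of genes passing) and in endothelial-like nuclei -0.65 ± 1.01 (edgeR adjusted p = 0.867, 3.20% passing). The levels of the glial classes were below that of Kcnip4 in erythroid-like nuclei, and they are given beside the markers of neurons. All 10 neuron markers and all 11 thalamic neuron markers had UMIs in astrocyte-like and oligodendrocyte-like nuclei of every library, and none was at 0. Astrocyte-like nuclei had summed neuron markers of 3040, 3141, 2924 and 2729 CPM, and oligodendrocyte-like nuclei had 2529, 2615, 2329 and 2175 CPM. The summed thalamic neuron markers ranged from 5392 to 5474 CPM at ZT8 and 4833 to 4980 at ZT20 in astrocyte-like nuclei, and from 1704 to 1779 against 1490 to 1497 in oligodendrocyte-like nuclei. This list is not specific to neurons, as Tcf7l2 stood at 738 to 859 CPM in astrocyte-like and 732 to 799 in thalamic-like nuclei. The 7 GABAergic neuron markers went the other way, from 106 to 107 CPM at ZT8 to 153 to 155 at ZT20 in astrocyte-like nuclei and from 128 to 133 to 164 to 188 in oligodendrocyte-like nuclei. Per 1000 neuron marker UMIs, Kcnip4 was 205 and 227 at ZT8 and 157 and 166 at ZT20 in astrocyte-like nuclei, beside 618 and 615 against 426 and 406 in neuron-like nuclei. The part of free neuronal RNA in the glial change of Kcnip4 was not tested. Any such part would repeat the change in neurons by which the gene was chosen, so these p-values are no separate support for it.

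The Kv4 channel complex itself, with the pore subunits Kcnd1, Kcnd2 and Kcnd3 and the DPP-like subunits Dpp6 and Dpp10, was present in the same classes. Kcnd2 averaged 3715 ± 245 CPM (SD, n = 4 libraries) in thalamic-like, 2028 ± 267 in GABAergic-like, 4064 ± 259 in OPC-like and 3571 ± 116 in astrocyte-like nuclei, and 169.8 ± 27.7 in oligodendrocyte-like nuclei. The 2 glial classes with the most Kcnip3 were thus also high in Kcnd2. Kcnd3 averaged 253 ± 23.2 CPM in thalamic-like and 297 ± 10.7 in OPC-like nuclei, and Kcnd1 stayed at 6.68 ± 0.943 and 5.99 ± 3.29. Dpp6 and Dpp10 were at 897 ± 109 and 834 ± 52.3 CPM in OPC-like nuclei, against 190 ± 6.76 and 81.4 ± 8.63 in astrocyte-like nuclei. Over the 30 neuron clusters the log2 level of Kcnip4 had a Pearson correlation of 0.64 with Kcnd2 (Spearman 0.61), 0.57 with Kcnd3 (0.50), 0.25 with Dpp6 (0.25) and -0.02 with Dpp10 (-0.05), a description of clusters that share libraries.

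Between the times, 3 of the 5 complex genes rose in thalamic-like nuclei and none fell, where 10.8% of all genes tested passed as higher and 9.20% as lower, with a list median of 0.07 against 0.00 over all genes. Kcnd3 rose by 0.24 ± 0.03 (edgeR adjusted p = 2.8e-10), Kcnd2 by 0.18 ± 0.02 (5.1e-12) and Dpp10 by 0.07 ± 0.02 (0.0092). Kcnd2 and Kcnd3 passed with equal draws too, at 0.09 ± 0.02 and 0.19 ± 0.03, and Dpp10 did not. In GABAergic-like nuclei 2 rose and 2 fell, where 19.2% of all genes passed in either direction, with a median of -0.17 against 0.00. Kcnd2 rose by 0.32 ± 0.04 (edgeR adjusted p = 2.2e-06) and Dpp6 by 0.23 ± 0.04 (2.8e-04), while Kcnd3 fell by 0.30 ± 0.05 (6.1e-05) and Dpp10 fell by 0.27 ± 0.06 (0.0067). With equal draws Kcnd3, at -0.19 ± 0.07, no longer passed (edgeR adjusted p = 0.0684). By edgeR's test 0 complex genes passed in other neurons, astrocyte-like or OPC-like nuclei, with 0, 1 (Kcnd2) and 2 (Dpp6 and Kcnd2) at an unadjusted p under 0.05. In oligodendrocyte-like nuclei Kcnd2 fell by 0.35 ± 0.08 and Dpp10 fell by 0.30 ± 0.11 (edgeR adjusted p = 7.0e-04 and 0.0413), beside the lower summed thalamic neuron markers given above, whose part was not tested.

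Other lists tied to the family were counted the same way and read against the same shares of all genes, 10.8% higher and 9.20% lower in thalamic-like and 19.2% in either direction in GABAergic-like nuclei. Of the 7 relatives among neuronal calcium sensor proteins, 4 rose and 0 fell in thalamic-like nuclei, with the smallest p for Hpcal1 (log2 change 0.51 ± 0.11), Ncs1 (0.17 ± 0.04) and Ncald (0.11 ± 0.03). In GABAergic-like nuclei 2 rose, Hpcal4 (0.43 ± 0.10) and Hpcal1 (0.30 ± 0.09), and 0 fell. With equal draws 3 of 7 passed as higher in thalamic-like nuclei, Ncald no longer (0.064 ± 0.03), and 0 of 6 in GABAergic-like nuclei, where Hpcal4 was at 0.38 ± 0.14 and Hpcal1 at 0.34 ± 0.12 (edgeR adjusted p = 0.0829 and 0.0782). The list medians were 0.17 and 0.30, against 0.00 over all genes in both classes. Of the genes listed as targets of KChIP3, Pdyn (1.67 ± 0.32) and Fos (0.92 ± 0.11) rose in thalamic-like and Pdyn (3.35 ± 0.22) in GABAergic-like nuclei, classes in which Kcnip3 itself did not pass. These calls held with equal draws, where Fos also passed as lower in GABAergic-like nuclei (-0.80 ± 0.24). Pdyn was also a listed marker of Oxt or Avp neurons. The Sim1 PVN-like cluster, led by such genes, had 19 and 25 nuclei in the ZT8 libraries against 202 and 170 in the ZT20 ones. Equal draws leave free RNA in place, and its part in the Pdyn changes was not tested. Of 6 other A-type channel subunits, Kcna4 rose (0.18 ± 0.05) and Kcnab1 fell by 0.10 ± 0.03 in thalamic-like nuclei. In GABAergic-like nuclei Kcnab1 rose (0.27 ± 0.05), and Kcnab2 and Kcnc4 fell by 0.35 ± 0.10 and 0.35 ± 0.11. With equal draws Kcna4 and the GABAergic-like Kcnab1 passed, and the 3 falls did not: Kcnab1 was at -0.044 ± 0.03 in thalamic-like, and Kcnab2 and Kcnc4 at -0.24 ± 0.16 and -0.17 ± 0.16 in GABAergic-like nuclei. Of 6 kinases and scaffolds of Kv4 channels, Dlg1 rose in thalamic-like nuclei (0.17 ± 0.04), and Camk2a (0.42 ± 0.04) and Dlg4 (0.34 ± 0.06) rose in GABAergic-like nuclei, with 0 falling in both classes. With equal draws Dlg4 did not pass (0.16 ± 0.08) and the other two did.

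Genes whose level ran most like that of a member over the 30 neuron clusters were named from 9476 genes by Pearson correlation of log2(CPM + 1), as a description with no test. For Kcnip4 they were Nin (0.90), Trps1 (0.87), Robo1 (0.86), Lhfp (0.85) and Ttc14 (0.84), and for Kcnip1 Slc39a11, Ttc28, Trpc5, Rtl4 and Prxl2c (0.79 to 0.80). For Kcnip2 they were Abi2 (0.90), Mmut, Phactr1 and Trim35 (0.85 each) and Cacng8 (0.84). For Kcnip3 they were Ptpn5 (0.77), Gnal (0.75), Pacsin2 and Pag1 (0.69 each) and Akirin1 (0.68), so Kcnip3 had the weakest likeness to its nearest gene.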

How the data were processed

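UMI counts per gene and nucleus were deposited by the authors for each library as raw, unnormalized whole numbers, made with Cell Ranger 7.0.0 per the file headers; STAR 2.6 and mm10 are named in the submitters' processing notes. The counting of introns and the calling of barcodes are not given in the sources used here. Nuclei below 500 genes or above 5% mitochondrial UMIs were removed (Python 3.11.15, scanpy 1.11.5). Scrublet's automatic threshold marked 0 or 1 nuclei per library, so the 326 to 702 nuclei with the highest doublet scores were removed, 0.8% per 1000 barcodes. Nuclei were clustered (leidenalg 0.10.2) on 3000 variable genes and 40 components, leaving out 45 genes, the members included. Classes were named from marker lists; thresholds on their scores were chosen once clusters had been seen, and parts of the scripts began from an earlier analysis of these files. No glutamatergic-like class was named, since its list held 3 genes.

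Counts were summed per library and class, with the library as replicate, and tested with edgeR 4.0.16 (R 4.3.3, TMM, filterByExpr, quasi-likelihood F test, two-sided, Benjamini-Hochberg over all genes tested, threshold 0.05). Class by time terms were fitted with a library term. All 4 members passed the filter in the pools, the neuron classes, astrocyte-like, oligodendrocyte-like and OPC-like nuclei; Kcnip3 and Kcnip4 did in microglia-like nuclei and all but Kcnip2 in endothelial-like nuclei. Intervals cover counting error only. On simulated data, 83.5% of 200 genes changed by 1 on the log2 scale were recovered for neuron-like nuclei (19579 genes, 9 false calls) and 53.5% for OPC-like nuclei (9900 genes, 3 false calls). Every gene was simulated with the same fixed dispersion, not with estimates from these data. Smaller changes, such as most of those given for the members, were not simulated. Alternatives were DESeq2 1.42.0, other filters on genes and nuclei, doublets, the replicate number as a block and each library left out; equal makeup within classes, upper-quartile factors within neuron classes, and the leave-one-out fits of clusters and class by time terms were added after the data were seen.

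The members and gene lists were chosen with earlier results of these data known. Genes named were the members, the Kv4 complex list, up to 3 genes with the smallest p of each other list, and up to 5 genes most like each member over clusters; part of the list of KChIP3 partners and targets is not reported here. GENCODE M21 positions matched 32235 of 32285 gene identifiers.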

Additional observations from a re-analysis of the deposited data

Results flagged for a closer look

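The change of Kcnip1 between the times differed between neuron classes by the class by time term of the edgeR fit. It was lower in GABAergic-like than in thalamic-like nuclei by a log2 difference of -0.31 ± 0.06 (edgeR adjusted p = 3.6e-05), with -0.36 to -0.26 when each library was left out, and 0.04 ± 0.09 when the same number of nuclei was drawn from each cluster. It was also lower in GABAergic-like nuclei than in other neurons, by -0.30 ± 0.06 (edgeR adjusted p = 0.0022), and this call was lost without ZT20 replicate 2 (-0.22, edgeR adjusted p = 0.214).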

How the results depend on the processing

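With 2 libraries a time, single libraries weigh heavily, and DESeq2 called fewer genes than edgeR in all 10 pools and classes: 6409 against 10035 in all nuclei, 4830 against 8528 in neuron-like, 1076 against 3442 in thalamic-like, 1000 against 3079 in GABAergic-like nuclei, 325 against 1930 in other neurons, 136 against 764 in astrocyte-like, 428 against 1285 in oligodendrocyte-like, 9 against 140 in OPC-like, 2 against 59 in microglia-like and 59 against 245 in endothelial-like nuclei. The number of genes given an adjusted p differed too, so these counts are not shares of the same genes. By DESeq2 against edgeR it was 965 against 9900 in OPC-like, 3916 against 12089 in astrocyte-like and 1283 against 7650 in endothelial-like nuclei. In microglia-like nuclei it was higher by DESeq2, 18140 against 7581. With DESeq2 the calls of Kcnip2 in GABAergic-like nuclei (0.39), Kcnip1 in other neurons (0.18) and Kcnip3 in astrocyte-like nuclei (0.43) were lost at about the same log2 change. Equal makeup left 3844 genes called in neuron-like and 925 in GABAergic-like nuclei, where fewer nuclei entered. It gave Kcnip4 -0.13 in neuron-like, -0.061 in thalamic-like and -0.29 in GABAergic-like nuclei, turned Kcnip3 to 0.087 in neuron-like and 0.058 in thalamic-like nuclei, Kcnip1 to 0.12 in GABAergic-like nuclei and the Kcnip1 difference between GABAergic-like and thalamic-like nuclei to 0.036, and ended the calls of Kcnip1 in thalamic-like (0.088) and Kcnip2 in GABAergic-like nuclei (0.25). The stricter filter on nuclei gave Kcnip4 -0.59 in all nuclei and 6 genes called in endothelial-like nuclei. Upper-quartile factors brought Kcnip1 in GABAergic-like nuclei past the threshold (-0.14). Removing further doublet scores did so for Kcnip3 in GABAergic-like (0.30) and Kcnip4 in OPC-like nuclei (-0.51), moved Kcnip4 in microglia-like nuclei to -0.59 and left 60 genes called in endothelial-like nuclei. No filter on genes did so for the same Kcnip3 (0.25) and Kcnip4 (-0.42) results, and gave 105 genes called in microglia-like nuclei. The cause of these shifts was not tested.

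Same-numbered libraries had correlations of -0.027 to 0.016 in their deviations from the time means. These run over all genes that passed the filter on low counts, so they cannot decide whether the replicate numbers pair the libraries for some genes. With the replicate block, Kcnip3 in GABAergic-like nuclei passed (0.24), 40 genes were called in OPC-like and 107 in microglia-like nuclei, and no other call of a member changed.

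Leaving out each library in turn gave the following lowest and highest values. Genes called were 1151 to 1772 in other neurons, 110 to 542 in astrocyte-like, 739 to 912 in oligodendrocyte-like, 0 to 154 in OPC-like, 26 to 107 in microglia-like and 144 to 355 in endothelial-like nuclei. Kcnip4 changes were -0.67 to -0.62 in all nuclei and also in neuron-like nuclei, -0.042 to 0.0062 in thalamic-like nuclei, -0.11 to -0.0011 in other neurons, -0.60 to -0.24 in OPC-like, -0.61 to 0.060 in microglia-like and -2.02 to 0.034 in endothelial-like nuclei. Kcnip3 changes were -0.047 to 0.0074 in thalamic-like, 0.065 to 0.42 in GABAergic-like nuclei, 0.094 to 0.33 in other neurons, 0.094 to 0.66 in microglia-like, 0.38 to 0.49 in astrocyte-like, -0.42 to 0.58 in oligodendrocyte-like and -0.12 to 0.00088 in OPC-like nuclei. Kcnip1 changes were -0.16 to -0.090 in GABAergic-like nuclei, 0.11 to 0.24 in other neurons, -0.56 to -0.20 in astrocyte-like, 0.37 to 0.84 in oligodendrocyte-like and 0.51 to 1.44 in endothelial-like nuclei, and Kcnip2 changes 0.078 to 0.17 in thalamic-like, -0.050 to 0.62 in astrocyte-like and -1.10 to 0.56 in OPC-like nuclei. The class by time terms of Kcnip1 kept their sign, at -0.36 to -0.26 and -0.37 to -0.22.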
